A study of Mus musculus with 12 samples.

Results

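Hcn2 (ENSMUSG00000020331) and Hcn4 (ENSMUSG00000032338) encode the main hyperpolarization-activated, cyclic nucleotide-gated (HCN) channels of the mouse heart. They were picked by gene symbol and make up 2 of the 40594 genes in the deposited count table. The libraries hold total RNA of adult mouse ventricle, either left (LV) or right (RV), from hearts labelled control or Wnt LOF, a loss of function in the Wnt signalling pathway. The 4 groups (control LV, control RV, Wnt LOF LV and Wnt LOF RV) held 3 libraries each, 12 in all. The labels name neither the gene that was altered nor the promoter or Cre driver, the strain or any further allele, and they give no treatment. Nor do they tie each library to an animal of its own, so a p-value measures only how these libraries spread, which may be technical. In such whole-tissue RNA, fewer cells of a type and less RNA per cell cannot be told apart.

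HCN channels open when the membrane becomes more negative and carry an inward current of sodium and potassium, the funny current, which drives the slow depolarization between beats. Binding of cAMP eases their opening, which is how adrenergic signals speed the sinoatrial node and muscarinic signals slow it. HCN4 is the main isoform of the sinoatrial node and of the conduction system, HCN2 is the main one of working heart muscle, and ventricular muscle normally has little of the current. By its title, the study asked how Wnt shapes gene expression and arrhythmia differently in the right and the left ventricle.

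Both genes lie downstream of GC-rich sequence. The 250 bases before the RefSeq start of each gene (build GRCm38.p6, plus strand) are shown because a direct input of the Wnt pathway is commonly looked for in this window. Capitals mark GC boxes (GGGCGG on either strand), and the names give the windows chr10:79716384-79716633 and chr9:58822699-58822948.
Hcn2 promoter: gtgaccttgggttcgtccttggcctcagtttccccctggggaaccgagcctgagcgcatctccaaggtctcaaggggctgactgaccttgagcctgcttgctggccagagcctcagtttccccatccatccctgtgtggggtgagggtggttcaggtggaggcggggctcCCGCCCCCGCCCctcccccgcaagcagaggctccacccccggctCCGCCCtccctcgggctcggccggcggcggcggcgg
Hcn4 promoter: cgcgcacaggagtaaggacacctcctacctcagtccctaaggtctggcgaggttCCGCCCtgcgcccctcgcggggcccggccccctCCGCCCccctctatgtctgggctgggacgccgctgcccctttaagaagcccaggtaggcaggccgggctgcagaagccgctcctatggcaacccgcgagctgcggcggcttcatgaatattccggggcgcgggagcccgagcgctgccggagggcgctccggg
The Hcn2 window is 70.4% G or C with 16 CpG dinucleotides and holds 3 GC boxes. The Hcn4 window is 71.2% G or C with 25 CpG and holds 2 GC boxes. Over 32851 promoter windows of the same length the medians were 52.4% and 6 CpG, and 32.7% held at least 1 GC box. Neither member's window holds a TCF/LEF core, searched on both strands as CTTTGA (in 13.8% of all windows) or CTTTGT (in 16.5%). Neither holds TATAAA (12.4%). The absence says only that these letters are not in these windows.

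The coding sequences of the members are alike in the channel pore, which bears on whether reads of one could be counted for the other. The 120 bases of each coding sequence around their longest identical run (32 bases) are shown, with capitals at the 26 positions that differ (78.3% identity). They are coding bases 1127 to 1246 of 2589 in Hcn2 and 1361 to 1480 of 3603 in Hcn4.
Hcn2 pore region: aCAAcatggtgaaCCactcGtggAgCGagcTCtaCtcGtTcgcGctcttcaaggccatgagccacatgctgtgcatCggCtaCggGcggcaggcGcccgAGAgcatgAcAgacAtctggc
Hcn4 pore region: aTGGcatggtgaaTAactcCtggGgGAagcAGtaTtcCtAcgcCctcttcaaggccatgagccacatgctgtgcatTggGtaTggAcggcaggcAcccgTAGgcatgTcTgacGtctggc
Of the 50-base words in the transcripts, 0 of 3190 of Hcn2 and 0 of 6069 of Hcn4 occurred in transcripts of any other gene. An exact read of that length from either member therefore matches the transcripts of 1 gene. For Hcn3, 662 of 4184 words (15.8%) also occurred in Pklr, so its few counts are uncertain.

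Total counts ran from 13.3 to 19.2 (in units of 1e+06 reads), and mitochondrially encoded genes took 4.62% to 8.29% of them. The summed level of 6 ventricular muscle markers was between 59166 and 66131 CPM in every library, where CPM are counts scaled to 1e+06 per library with TMM size factors. In each group the library numbered 3 was the only one with the Y-linked gene Ddx3y above 1 CPM. Wif1, at 2.62 to 3.18 CPM in control LV and 11.99 to 18.4 CPM in control RV, was at 13.5 CPM in the library labelled Wnt LOF LV 1 and at 2.55 CPM in the library labelled Wnt LOF RV 1. That pair therefore goes against its ventricle labels for this gene. Over 7 autosomal genes that were on or off in single libraries, the library labelled control LV 2 had the same 7 states as both Wnt LOF libraries numbered 1 and shared 6 with control RV 2. Control RV 2 in turn had the same 7 states as both Wnt LOF libraries numbered 2. Results of the 2 members are given with and without these libraries where they moved. Those of the gene lists are given with all 12 libraries only. Ctnnb1, which encodes beta-catenin, was at a log2 fold change of -0.20 in the LV (SE 0.14, adjusted p = 0.9994 by edgeR's quasi-likelihood test) and at -0.37 for the RV (SE 0.14, adjusted p = 0.99998). Ctnnb1 levels did not overlap in the RV (352 to 454 CPM in Wnt LOF, 511 to 560 CPM in control), as for 7.56% of all genes. In the LV they overlapped (395 to 532 CPM in Wnt LOF, 426 to 598 CPM in control). Since the labels do not name the target, Ctnnb1 checks no label.

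Hcn2 was a moderately expressed gene of all 12 libraries. In control LV it was at 52.3, 51.2 and 55.4 CPM (libraries 1 to 3). In control RV it was at 55.5, 27.1 and 50.9 CPM. These levels were close to each other in 5 of the 6 control libraries, and control RV 2 stood apart at 409 counts, the lowest Hcn2 count of the series. In Wnt LOF LV it was at 42.2, 46.6 and 50.8 CPM. In Wnt LOF RV it was at 56.1, 43.4 and 54.5 CPM. The group means in order were 53.0 ± 2.16 CPM in control LV, 51.3 ± 6.91 in Wnt LOF RV, 46.5 ± 4.30 in Wnt LOF LV and 44.5 ± 15.2 in control RV (SD, n = 3 each). The ranges of the libraries overlapped between neighbours in that order, while control LV and Wnt LOF LV, which are not neighbours, did not overlap.

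Hcn4 was lower and more variable. In control LV it was at 10.8, 11.8 and 21.1 CPM. In control RV it was at 11.5, 9.01 and 15.9 CPM. The libraries numbered 3, which hold Y-linked reads, were the highest of each control group. In Wnt LOF LV it was at 10.2, 19.8 and 13.6 CPM. In Wnt LOF RV it was at 9.28, 17.1 and 14.1 CPM. Here the libraries numbered 2 were highest and those numbered 1 lowest in both ventricles. The group means were 14.6 ± 5.69 CPM in control LV, 14.5 ± 4.87 in Wnt LOF LV, 13.5 ± 3.95 in Wnt LOF RV and 12.1 ± 3.47 in control RV (SD, n = 3 each). All 4 groups overlapped, so no order among them exceeds their spread.

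**Figure D1:**
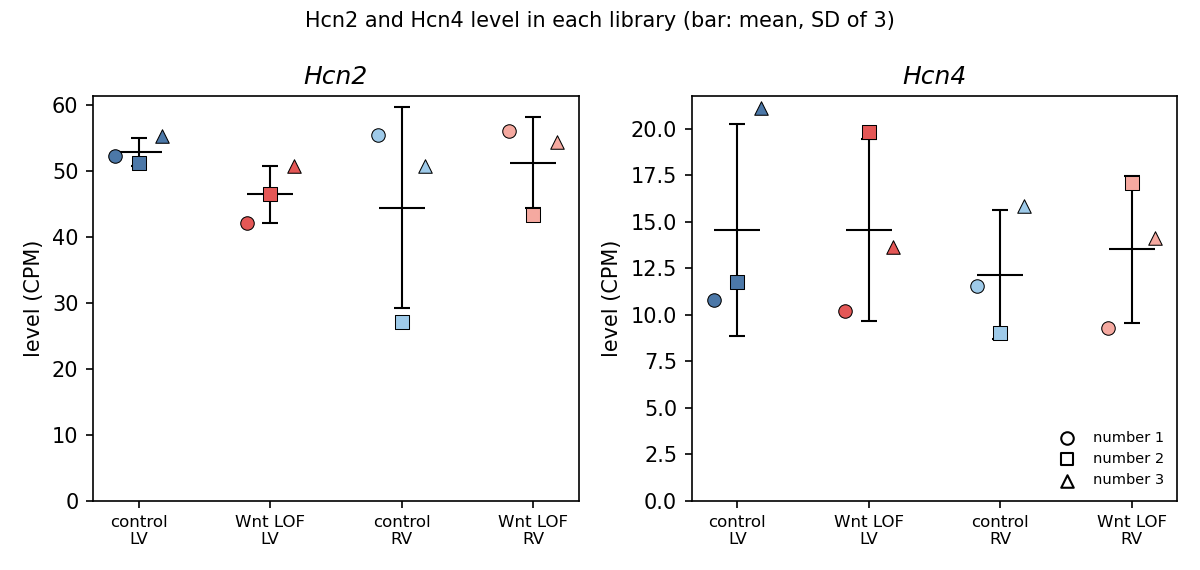
Level of Hcn2 and Hcn4 (y axis, CPM with TMM factors, from 0) in each library of the 4 groups (x axis). Points are libraries, shaped by number, and bars are the mean with the SD of 3. Hcn2 lies between 42.2 and 56.1 CPM except in control RV 2 (27.1 CPM), and Hcn4 spans 9.01 to 21.1 CPM with overlap of all groups.

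The depth behind the 2 genes differed. Hcn2 had 409 to 1017 counts per library and Hcn4 136 to 301. The estimated biological coefficient of variation was 18.1% for Hcn2 and 28.4% for Hcn4, against a median of 13.3% over all 15494 tested genes. The SD of log2 CPM over the 12 libraries was 0.29 for Hcn2 and 0.41 for Hcn4. Of 13664 genes with a mean of at least 1 CPM, 78.2% had a smaller SD than Hcn2 and 91.3% a smaller SD than Hcn4. From lowest to highest library, Hcn2 spanned 2.07-fold and Hcn4 2.34-fold.

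Hcn2 was also above Hcn4 when levels were divided by exon length. Hcn2 averaged 15.3 CPM per kb of exon (range 8.48 to 17.6) and Hcn4 2.24 (1.47 to 3.45). Hcn3, another channel of the family, averaged 0.0567 (0.0134 to 0.143), from 1 to 10 counts per library. In all 12 libraries the per-length level of Hcn2 exceeded that of Hcn4, by 4.50- to 11.6-fold. Lengths are the merged exons of each gene in the GENCODE annotation (3195 bases for Hcn2, 6118 for Hcn4 and 4154 for Hcn3). They need not equal the transcripts in these hearts.

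**Figure D2:**
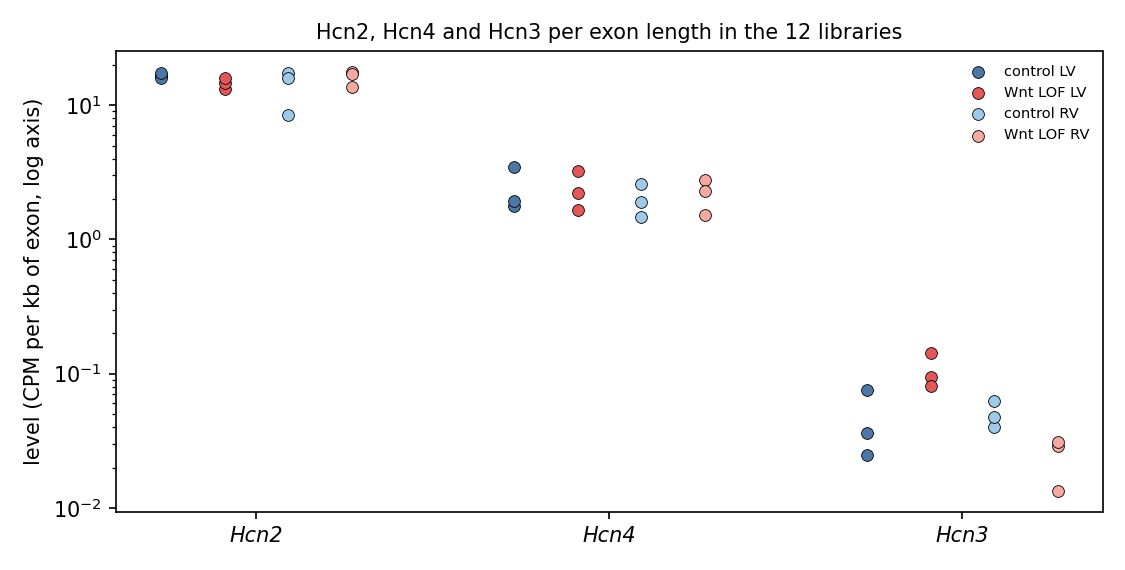
Level per kb of exon (y axis, log scale) of Hcn2, Hcn4 and Hcn3 (x axis) in each of the 12 libraries, coloured by group. Hcn2 is highest of the 3 (8.48 to 17.6), Hcn4 is next (1.47 to 3.45) and Hcn3 is lowest (0.0134 to 0.143), with no overlap between them.

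In the left ventricle, Wnt LOF libraries had slightly less Hcn2 than control libraries, and Hcn4 had nearly the same mean in both. The highest Wnt LOF library (50.8 CPM) lay just below the lowest control library (51.2 CPM), so the Hcn2 groups did not overlap. The lowest Wnt LOF library (42.2 CPM) is the one labelled LV 1, whose Wif1 goes against its label, and its partner labelled RV 1 was at 56.1 CPM, above the lowest control LV library. Across all genes 7.9% did not overlap in this comparison (3.95% lower and 3.95% higher). Of the 2 members, Hcn2 did not. The log2 fold change of Hcn2 was -0.19 (SE 0.21, 95% interval -0.64 to 0.27) with an adjusted p of 0.999 by edgeR's quasi-likelihood test. The interval allows levels from 0.642 to 1.202 times those of control. Without the library labelled Wnt LOF LV 1 the log2 fold change was -0.12 (SE 0.24), and also -0.12 (SE 0.25) without both libraries of that pair. Hcn4 had a log2 fold change of 0.0080 (SE 0.33, interval -0.73 to 0.74), with the same adjusted p, which allows 0.603 to 1.68 times. Neither member passed an adjusted p of 0.05 in this comparison, where 0% of all genes did. At an unadjusted p under 0.05 were 442 genes (2.85%), again without either member, and DESeq2 called 0 genes. Without Wnt LOF LV 2, its highest library, Hcn4 was at -0.27, and without control LV 3 it was at 0.37.

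In the right ventricle both members had a higher mean in Wnt LOF, with overlapping groups. Hcn2 had a log2 fold change of 0.20 (SE 0.21, 95% interval -0.25 to 0.66), with an adjusted p of 0.99998 by edgeR's quasi-likelihood test. This value rests on control RV 2, the library with 27.1 CPM, and without it the log2 fold change was -0.05. Hcn4 had a log2 fold change of 0.15 (SE 0.34, interval -0.59 to 0.89), with the same adjusted p. The intervals allow 0.842 to 1.58 times the control level for Hcn2 and 0.663 to 1.86 times for Hcn4. Neither member passed an adjusted p of 0.05 (0% of genes did), and neither was among the 418 genes (2.7%) with an unadjusted p under 0.05. DESeq2 called 0 genes here. Groups did not overlap for 7.56% of genes and for 0 members. Without the libraries labelled Wnt LOF LV 1 and RV 1, Hcn4 was at 0.36.

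The authors' deposited table gave the same range of values. In it Hcn2 had a log2 fold change of -0.22 in the LV (adjusted p = 0.894) and 0.12 in the RV (adjusted p = 0.957). Hcn4 stood at -0.0024 in the LV (adjusted p = 0.999) and 0.04 in the RV (adjusted p = 0.987) in the authors' deposited table. Over the mean of both ventricles, the log2 fold change was 0.0089 for Hcn2 (SE 0.15, interval -0.31 to 0.33). For Hcn4 it was 0.08 (SE 0.24, interval -0.44 to 0.60). These intervals allow 0.806 to 1.26 times the control level for Hcn2 and 0.735 to 1.52 times for Hcn4. Neither member was called, as 0% of genes were with edgeR, while 560 (3.61%) had an unadjusted p under 0.05 and DESeq2 called 5 genes, neither member among them. Groups did not overlap for 0.161% of genes and for 0 members.

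Between the ventricles of control hearts, both members had lower means in the RV. Hcn2 had a log2 fold change, RV against LV, of -0.25 (SE 0.21, 95% interval -0.70 to 0.20) with an adjusted p of 0.937 by edgeR's quasi-likelihood test. Without control RV 2 this value was 0.0021. Hcn4 was at -0.25 too (SE 0.34, interval -0.99 to 0.49) with an adjusted p of 0.968. Without control LV 3, its highest library, it was at 0.10. Neither member was called (0% of genes), 757 genes (4.89%) had an unadjusted p under 0.05 without either member, and DESeq2 called 0. Groups did not overlap for 12.6% of genes and for 0 members.

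Between the ventricles of Wnt LOF hearts, Hcn2 was at 0.14 (SE 0.21, interval -0.31 to 0.59), with an adjusted p of 0.9996 by edgeR's quasi-likelihood test. Hcn4 was at -0.11 (SE 0.34, interval -0.85 to 0.63), with the same adjusted p. Without the pair numbered 1, whose Wif1 levels go against the ventricle labels, the values were 0.0089 for Hcn2 and -0.10 for Hcn4. Neither member was called (0% of genes), and 746 genes (4.81%) had an unadjusted p under 0.05 without either member. DESeq2 called 0 genes. Groups did not overlap for 7.05% of genes and for 0 members. The interaction, the difference between the ventricles in the effect of Wnt LOF, was 0.39 for Hcn2 (SE 0.29, interval -0.25 to 1.03, adjusted p = 0.9996). Without control RV 2 it was 0.14. For Hcn4 it was 0.14 (SE 0.48, the same adjusted p), and 0% of genes were called while 312 (2.01%) had an unadjusted p under 0.05, neither member among them.

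**Figure D3:**
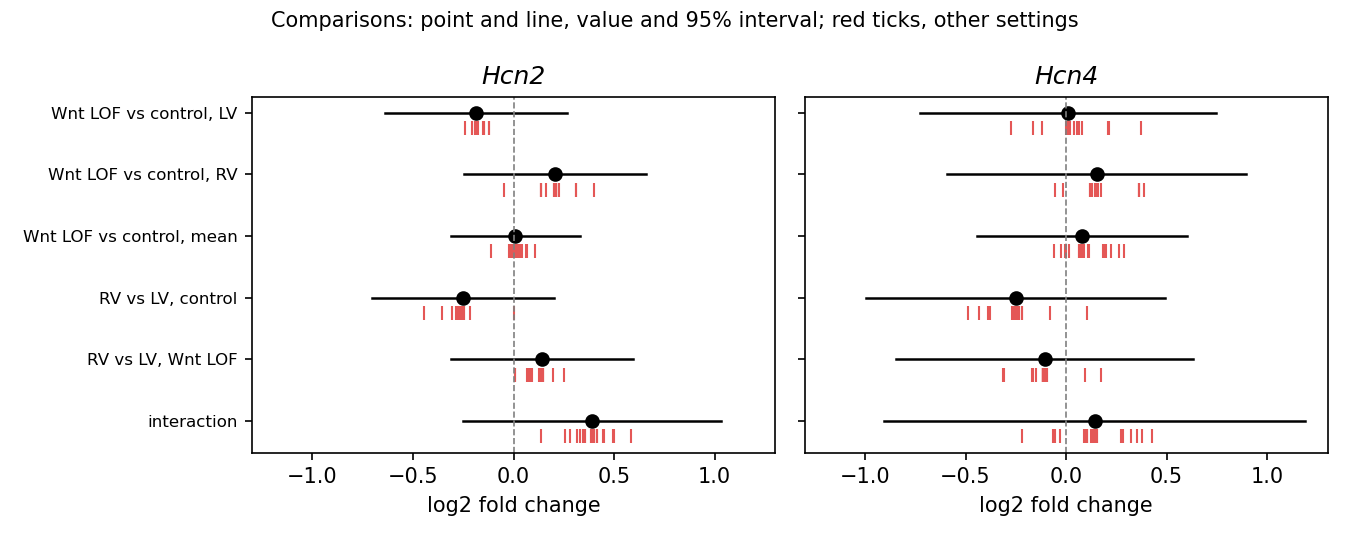
Log2 fold change (x axis) of Hcn2 and Hcn4 in 6 comparisons (y axis). Points and lines are the value and its 95% interval over 12 libraries, and red ticks are the values under other settings, including each library left out. Every interval spans 0, and Hcn2 in the right ventricle moves from -0.05 to 0.40 as single control RV libraries are left out.

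Left and right libraries that carry the same number were compared next, since same-numbered libraries deviated together across all genes, though for Wnt LOF numbers 1 and 2 no more than LV 1 did with RV 2. Right minus left on the log2 CPM scale, Hcn2 differed by 0.08, -0.92 and -0.12 in control pairs 1 to 3 and by 0.41, -0.10 and 0.10 in Wnt LOF pairs. Control pair 2 had the largest difference of these 6, and its RV library holds the low value. Its libraries shared 6 of the 7 on or off states, while the libraries of every other same-numbered pair shared all 7. Whether control pair 2 comes from 1 heart was not tested. Hcn4 differed by 0.10, -0.38 and -0.41 in control pairs and by -0.14, -0.21 and 0.05 in Wnt LOF pairs. So, by the labels, Hcn4 was lower in the RV library of 4 of the 6 pairs and Hcn2 in 3 of the 6. These counts include Wnt LOF pair 1, whose Wif1 goes against its ventricle labels. Its differences (0.41 for Hcn2 and -0.14 for Hcn4) would change sign if those labels were exchanged. With the number as a replicate block nested in genotype, Hcn4 in control hearts was at -0.23 (SE 0.12, adjusted p = 0.579 by edgeR's quasi-likelihood test), and Hcn2 at -0.30 (SE 0.19, adjusted p = 0.645). For Hcn4 the SE under this pairing is less than that without it (0.34).

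Left and right libraries of the same number had similar Hcn4 levels, a relation that did not pass adjustment. Over the 6 numbers, left against right log2 CPM of Hcn4 had Pearson's r = 0.881 (exact permutation p = 0.0333, 0.0667 after adjustment over the 2 members) and Spearman's rho = 0.771 (exact p = 0.103). Without the 2 numbers farthest from the median, r was 0.701. Centred on the mean of each genotype, r was 0.897 with rho = 0.943. Permutation over all 6 numbers gave p = 0.0333 and p = 0.0167 for these. Centred values cannot be exchanged freely between genotypes, so these 2 p-values are not exact. Of 13664 genes, 3.89% had an r as high without centring, and the median gene had 0.284. Without the pair Wnt LOF 1 r was 0.841 over 5 numbers (exact p = 0.1). No value without control pair 2 is given here. Hcn2 gave r = -0.149 (exact p = 0.786) and 78% of genes had an r as high. This relation was examined after the values had been seen, and for the pairs numbered 3 a shared number and Y-linked reads cannot be told apart. With a term for the libraries with Y-linked reads, no member was called either.

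**Figure D4:**
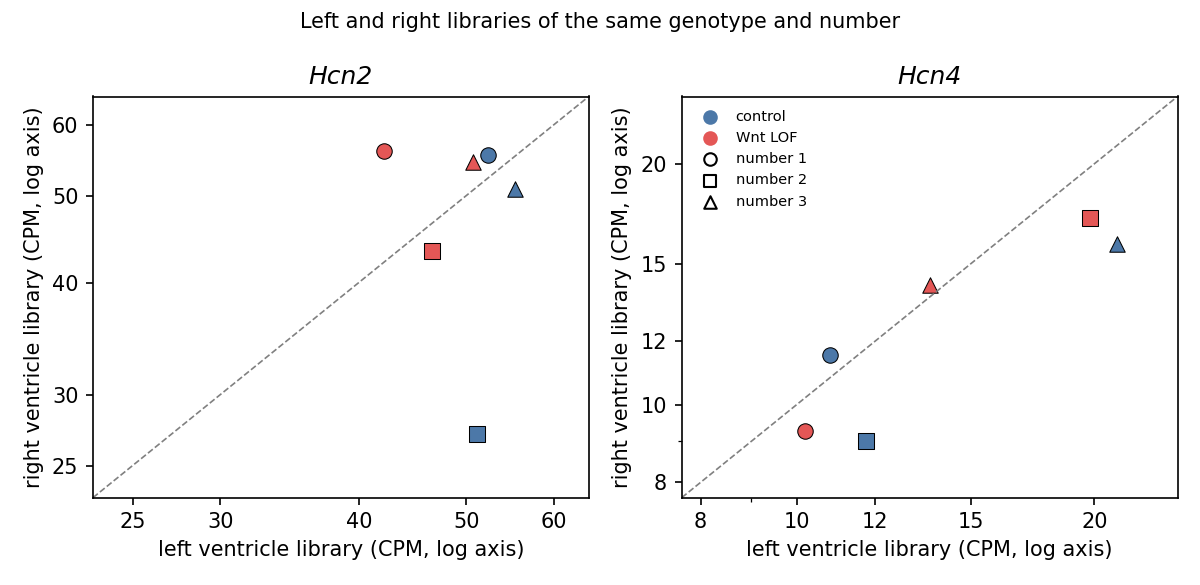
Level in the right ventricle library (y axis, CPM, log scale) against that in the left ventricle library of the same genotype and number (x axis, CPM, log scale). The dashed line marks equal levels. The 6 points of Hcn4 lie along it (r = 0.881), while control pair 2 of Hcn2 (51.2 in LV, 27.1 CPM in RV) lies far below it.

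No relation between the 2 genes passed its test. Over 12 libraries log2 CPM of Hcn2 and Hcn4 had Pearson's r = 0.317 (permutation p = 0.342) and Spearman's rho = 0.0559 (permutation p = 0.871). Without the 2 libraries farthest from the median of Hcn2, control RV 2 and Wnt LOF LV 1, r was -0.464, so the sign of the relation rests on those libraries. Within control libraries r was 0.591 and within Wnt LOF libraries -0.297 (n = 6 each). Within LV libraries it was 0.363 and within RV libraries 0.328. Hcn2 was the gene ranked 2965 by likeness to Hcn4, of 13664. The permutation treats the 12 libraries as independent, though left and right libraries of the same number may share a heart.

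Their count ratio needs no size factor. Hcn4 counts per 100 Hcn2 counts were 20.6, 23.0 and 38.1 in control LV and 20.8, 33.3 and 31.2 in control RV. They were 24.2, 42.5 and 26.9 in Wnt LOF LV and 16.5, 39.4 and 25.9 in Wnt LOF RV. All groups overlapped. The difference of mean log2 ratios, Wnt LOF minus control, was 0.20 in the LV (exact permutation p = 0.5, two-sided) and -0.12 in the RV (exact p = 0.8). Right minus left it was 0.09 in control (exact p = 0.9) and -0.24 in Wnt LOF (exact p = 0.6). With 3 against 3 libraries the smallest p this test can give is 0.1.

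Hcn4 levels were most like those of Hand2, a bHLH transcription factor of the developing right ventricle, by Pearson's r of log2 CPM over the 12 libraries (r = 0.941, rho = 0.916). Hand2 was at 28.7, 30.5 and 47.4 CPM in control LV and 28.5, 28.1 and 41.4 CPM in control RV. In Wnt LOF it was at 29.6, 39.9 and 32.6 CPM in the LV and 29.0, 39.0 and 33.7 CPM in the RV. As for Hcn4, number 3 of control and number 2 of Wnt LOF were the highest in both ventricles. Hand2 was picked for the highest r of 13664 genes over these same libraries, so the shared order is no separate support for a link. Next came mt-Nd5 (0.923), a mitochondrially encoded subunit of complex I, Mcf2l (0.922), Gm16153 (0.921) and Arhgap27 (0.910). Without control RV 2 these 5 values were between 0.890 and 0.939. The genes most like Hcn2 were Gm5900 (0.897), Pde8b (0.885), a cAMP phosphodiesterase, Arhgef28 (0.884), Rnf4 (0.883) and Abcc1 (0.882). Without control RV 2 these values were between 0.330 and 0.732, so they rest in good part on that library.

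Measures of the libraries were set beside both members, 12 relations in all. Hcn4 went with the mitochondrial share of counts (r = 0.666, permutation p = 0.0177, adjusted p = 0.212; rho = 0.664, permutation p = 0.0215, adjusted p = 0.258). Without the 2 most distant libraries r was 0.471. Within LV libraries it was 0.831, within RV 0.788, within control 0.802 and within Wnt LOF 0.592 (n = 6 each). Over the 8 libraries without Y-linked reads it was 0.549. The relation to total count was r = -0.526 (permutation p = 0.0787, adjusted p = 0.437). None of the 12 relations passed adjustment. Their p-values treat the 12 libraries as independent, though left and right libraries of the same number may share a heart. The part of the mitochondrial share in the Hcn4 levels was not tested.

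Conduction tissue expresses much more Hcn4 than ventricular muscle, so its markers were read in every library. The summed level of 8 Purkinje and conduction genes ran from 67.4 to 112 CPM in control LV and from 82.6 to 101 CPM in control RV. It ran from 89.9 to 112 CPM in Wnt LOF LV and from 67.3 to 110 CPM in Wnt LOF RV. These ranges overlap, and over 12 libraries the sum had r = 0.319 with Hcn4 (permutation p = 0.308, adjusted p = 0.528). Irx3 (mean 51.3 CPM) was the largest part of the sum, which can hide the spread of single markers. Cntn2 was at 6.39 CPM in Wnt LOF RV 1, 29.5 CPM in Wnt LOF LV 1 and 31.8 CPM in Wnt LOF RV 2. Gja5 ran from 7.48 to 13.2 CPM over all libraries. Of the sinoatrial markers, Isl1 was at 0 in 10 libraries and Vsnl1 at 0 in 7. Smoc2 (mean 93.3 CPM), Rgs6 (19.6), Tbx3 (13.1), Tbx18 (9.08) and Shox2 (0.587) were at 0 in none. Of 6 atrial markers, 4 were highest in Wnt LOF RV 3, where Myl7 was at 10.2 CPM (next highest 1.26) and Myl4 at 10.7 CPM (next highest 2.86), as were Sln and Bmp10. Nppa, the most abundant of the 6, was at 22.1 CPM there, within its range of 15.4 to 83.7 CPM, and Dkk3 at 4.35 CPM. The atrial sum ran from 19.1 to 91.3 CPM over all libraries, with 50.3 CPM in Wnt LOF RV 3 and the highest value in the library labelled Wnt LOF RV 1. Hcn4 in Wnt LOF RV 3, 14.1 CPM, lay in the middle of its group. In the library labelled Wnt LOF RV 1 it was lowest of that group, at 9.28 CPM. Of the neuronal markers, Th was at 0 in 11 libraries, while Dbh was at 3.59 to 12.2 CPM and Prph at 0.0561 to 0.782 CPM over the 12 libraries. The part of these cells in either member's level was not tested.

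Genes whose products act on HCN channels were examined in 4 lists, with none called by edgeR or DESeq2 in any list for Wnt LOF against control in either ventricle (0% of all genes). Of 9 listed accessory proteins 8 were tested. Kcne2, a small subunit that can join HCN channels, was at 0 in 7 libraries and was not tested. In the LV 5 of 8 had a log2 fold change above 0 (median 0.0028) and in the RV 4 of 8 (median -0.0011), against 49.1% and 50.3% of all genes. Cav3, the muscle caveolin that binds HCN4 in membrane caveolae, was at -0.03 (LV, SE 0.20) and 0.05 (RV, SE 0.20). Nedd4l, a ubiquitin ligase, was at 0.07 (SE 0.09) and -0.02 (SE 0.09). Mrvi1, an endoplasmic reticulum protein that modulates HCN4, was at 0.04 (SE 0.11) and 0.12 (SE 0.11). Flna, an actin crosslinker, was at -0.10 (SE 0.12) and -0.04 (SE 0.12).

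Transcription factors tied to Hcn4 and to the pacemaker programme were split evenly. Of 9 listed 8 were tested, with 4 above 0 and 4 below in each ventricle (medians 0.0074 in the LV and -0.0018 in the RV). Mef2c, a muscle activator, was at 0.03 (LV, SE 0.10) and 0.16 (RV, SE 0.10). Nkx2-5, which holds the pacemaker programme off in working muscle, was at -0.02 (SE 0.11) and 0.08 (SE 0.11). Rest, a repressor of Hcn2 and Hcn4 in ventricular muscle, was at 0.06 (SE 0.08) and -0.07 (SE 0.08). Tbx5, an activator in the conduction system, was at 0.12 (SE 0.22) and -0.05 (SE 0.22). Isl1, an activator of the sinoatrial node, was the gene not tested.

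The cAMP and muscarinic axis sets how readily HCN channels open. Of 14 listed genes 13 were tested, and Pde2a was not analysed here. In the LV 7 of 13 were above 0 (median 0.07) and in the RV 6 of 13 (median -0.02). Adcy6, a cardiac adenylyl cyclase, was at 0.08 (LV, SE 0.12) and -0.23 (RV, SE 0.12). Chrm2, the cardiac muscarinic receptor, was at 0.20 (SE 0.12) and 0.08 (SE 0.12). Prkar1a and Prkaca, subunits of the cAMP-dependent kinase, lay between -0.05 and 0.10. In the LV 1 of the 13 had an unadjusted p under 0.05, against 2.85% of all genes: Pde3a, a cAMP phosphodiesterase, at 0.28 (SE 0.13, adjusted p = 0.999 by edgeR's quasi-likelihood test). It is named for that p. Its levels were 181 to 206 CPM in Wnt LOF LV against 149 to 169 CPM in control LV. The highest, 206 CPM, was in the library labelled LV 1, whose Wif1 goes against its label. Chrm2 was also highest of its group there, at 261 CPM.

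Of 9 genes of other pacemaker currents and of the calcium clock, 8 were above 0 in the LV (median 0.13) and 3 in the RV (median -0.04). Of these, Kcnj3, Ryr2, Atp2a2 and Trpm4 were highest of all 12 libraries in the library labelled Wnt LOF LV 1. Wif1 goes against the label of that library, and the rest of the 9 peaked in other libraries. The part of that library in the LV values was not tested. Atp2a2, the calcium pump of the sarcoplasmic reticulum, was at 0.16 (LV, SE 0.13) and -0.04 (RV, SE 0.13). Ryr2, its release channel, was at 0.07 (SE 0.13) and -0.01 (SE 0.13), and Slc8a1, the sodium-calcium exchanger, at 0.03 (SE 0.11) and 0.15 (SE 0.11). Kcnj5, a subunit of the acetylcholine-gated potassium channel, was at 0.20 in the LV (SE 0.08, adjusted p = 0.999 by edgeR's quasi-likelihood test) and -0.10 in the RV (SE 0.08). Its levels were 99.6 to 111 CPM in control LV and 123 to 129 CPM in control RV. Of Wnt LOF LV only the library labelled LV 1 is given here, at 117 CPM. The part of that library in the value of 0.20 cannot be read from this. Kcnj5 was the 1 gene of the 9 with an unadjusted p under 0.05 in the LV. In the RV 0 of these 9 and 0 of the 13 cAMP genes had one, against 2.7% of all genes.

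**Figure D5:**
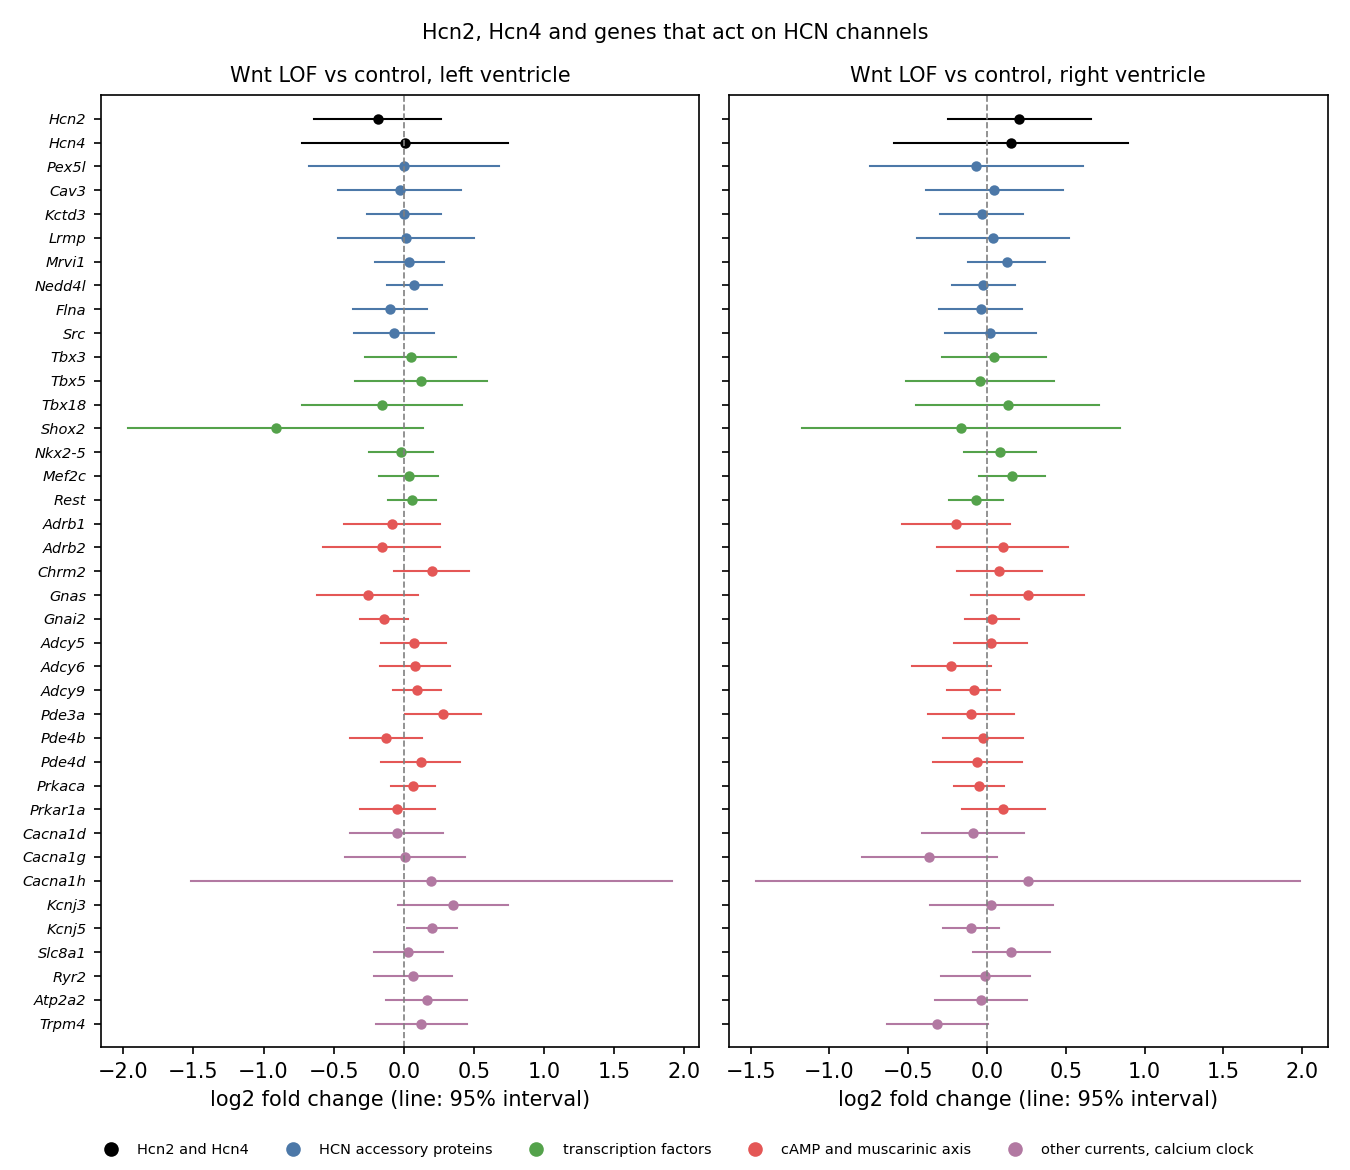
Log2 fold change, Wnt LOF against control (x axis, with 95% interval), of Hcn2, Hcn4 and genes that act on HCN channels (y axis, coloured by list), in the left and the right ventricle. The intervals of Pde3a and Kcnj5 in the LV lie just above 0 and all others in these panels span 0.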

How the data were processed

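Raw counts per Ensembl gene were deposited by the authors in 1 table for the 12 libraries. The submitters' processing notes name featureCounts, Subread and edgeR. The aligner, the build and the use of strand in counting were not given in the sources used here. Reads of a gene and of an overlapping or antisense gene cannot be separated. Per the file headers, 2 further tables hold the authors' own log2 fold changes and p-values. Of 41192 rows, 598 repeats of a gene were dropped.

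Counts were analysed with edgeR 4.0.16 (TMM factors 0.961 to 1.04, filterByExpr by group, robust quasi-likelihood test, 15494 genes tested), under R 4.3.3, with DESeq2 1.42.0 and limma 3.58.1 beside it. The model held 1 mean per group over 12 libraries, 6 comparisons were tested, and the Benjamini-Hochberg adjustment ran over all tested genes with a threshold of 0.05. The standard error is the log2 fold change over the square root of F. CPM use the TMM factors, and log2 CPM a prior count of 2. Permutation p-values are from all orders for up to 6 values per relation of left and right (not exact after centring), and otherwise from 1e+05 resamples. The fit was checked on simulated data. Promoters are from RefSeq (GRCm38.p6), where 2 of 2 members matched.

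Groups come from the sample titles and genotype labels. Whether equal numbers pair libraries was checked by correlating deviations from the group means over tested genes. Left and right gave 0.411, 0.290 and 0.517 for control numbers 1 to 3 and 0.191, 0.197 and 0.594 for Wnt LOF. Each of these is above 0.1, and on that ground same-numbered ventricles were treated as pairs, a pairing read from the data and not from the labels. Some differently numbered Wnt LOF libraries were above it too (LV 1 with RV 2 at 0.201, LV 2 with RV 1 at 0.133), the first of them above both same-number values of Wnt LOF 1 and 2. Between genotypes the same numbers did not all exceed it, though number 3 did (0.233 in the LV and 0.306 in the RV). Control LV 2 with Wnt LOF LV 1, of different genotypes by their labels, gave 0.321. A value above 0.1 therefore does not by itself mark a shared heart. Genes named are Hcn2, Hcn4 and Hcn3, Ctnnb1, up to 4 genes of highest mean CPM per list, markers at 0 or high in 1 library, and the 5 genes most like each member. Some genes this rule takes are not reported here. Wif1 and Ddx3y, and genes named for an unadjusted p, were chosen after their values were seen. The members, lists and tests were chosen with earlier results of these data known. Alternatives were other size factors, filters, DESeq2, the compared groups alone, replicate blocks, a term for Y-linked reads and leaving out libraries.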

Additional observations from a re-analysis of the deposited data

How the results depend on the processing

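Neither member was called under any of the 21 to 23 alternative settings of each comparison, and the smallest adjusted p was 0.579 (Hcn4, right against left in control, replicate block within genotype). As libraries were left out in turn, the log2 fold change of Hcn2 ran from -0.046 to 0.40 for Wnt LOF in the RV, from -0.44 to 0.0021 for right against left in control and from -0.11 to 0.11 for the mean of both ventricles. That of Hcn4 ran from -0.27 to 0.37 for Wnt LOF in the LV, -0.056 to 0.39 in the RV and -0.060 to 0.26 for the mean, from -0.49 to 0.10 for right against left in control and -0.31 to 0.17 in Wnt LOF, and from -0.22 to 0.43 for the interaction. The log2 ratio of Hcn4 to Hcn2 ran from -0.042 to 0.47 (Wnt LOF, LV), -0.43 to 0.20 (RV), -0.087 to 0.35 (right against left, control) and -0.54 to 0.080 (Wnt LOF). All of these include both signs, so no direction of a member held in every setting except Hcn2 in the LV (lower), Hcn2 right against left in Wnt LOF (higher) and the Hcn2 interaction (higher). Hcn2 right against left in Wnt LOF fell to 0.0083 in its lowest setting. No setting exchanged the labels of Wnt LOF LV 1 and RV 1.

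Leaving out the libraries labelled Wnt LOF LV 1 and RV 1 turned the RV ratio to 0.20, and leaving out control LV 2 as well turned the mean of both ventricles of Hcn2 to -0.0045. The left-right correlation of Hcn2 turned to 0.192 after centring each genotype and to 0.216 without the pair Wnt LOF 1.

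The count of genes called stayed between 0 and 1 as each library was left out, for Wnt LOF in the RV, for right against left in Wnt LOF and for the mean of both ventricles. Right against left in control it was 9 with the compared groups alone and 2 without the libraries labelled Wnt LOF LV 1 and RV 1, with or without control LV 2. In Wnt LOF hearts it was 2 under both of these and 1 with the replicate block within genotype, as for the interaction (1). For the mean of both ventricles it was 5 with DESeq2 and 2 without the Wnt LOF pair numbered 1. None of these genes was Hcn2 or Hcn4. With the replicate block, Hcn4 right against left in control was at -0.23 within genotype, and the block changed no call of a member. The cause of these shifts was not tested. Hcn4 had 136 to 301 counts per library and a biological coefficient of variation of 28.4%; with 3 libraries a group, intervals of the members' changes are wide.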
